A study of Mus musculus with 4 samples.

Results

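The replication-dependent histone genes lie in 4 clusters of the mouse genome, and their rows were taken from the deposited expression table by symbol, as every row whose name begins with Hist1h, Hist2h, Hist3h or Hist4h. This gave 67 of 23309 rows, of which 6 were H1, 18 H2A, 18 H2B, 12 H3 and 13 H4. By cluster, 53 rows belonged to Hist1 on chromosome 13, 10 to Hist2 on chromosome 3, 3 to Hist3 on chromosome 11 and 1 to Hist4 on chromosome 6. The rows include the pseudogene Hist3h2bb-ps, and 3 rows join the symbols of neighbouring copies (Hist1h2ao with Hist1h2ap, Hist1h4m with Hist1h4n, and Hist2h2aa1 with Hist2h2aa2). Hist1h2ap, Hist1h4n and Hist2h2aa2 also have rows of their own, so counts of rows include these symbols again.

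The samples were mouse embryonic stem cells of strain 129/Ola at passages 10 to 20, kept on gelatin-coated plates with serum and the cytokine LIF. Wild-type cells were compared with cells carrying Chd2 mutations on both alleles, written Chd2KO in the sample titles, Chd2 mut/mut as genotype and Chd2mut/mut in the table. Each genotype had 2 libraries of total RNA, called lots, made with the NEBNext Ultra RNA kit, which was not described further as to poly(A) selection or strand. For each gene the table gives a single FPKM value (fragments scaled for transcript length and library size) for wild type and another for the mutant, so no level below has a replicate error. Significance is read from the authors' deposited table.

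Replication-dependent histone genes supply the H1 linker histone and the core histones H2A, H2B, H3 and H4 that package newly made DNA, and their mRNAs accumulate in S phase. These mRNAs are the class of animal mRNA that ends without a poly(A) tail: a stem-loop after the stop codon is bound by SLBP, and the U7 small nuclear ribonucleoprotein directs the cut just downstream of it. Some of the genes also give longer, polyadenylated transcripts, as in differentiated cells. The Chd2 protein is a chromodomain helicase that moves nucleosomes with energy from ATP.

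The sequence that ends these mRNAs was read from the annotated transcripts, to show which form each class carries. A search for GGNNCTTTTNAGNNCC (where N is any base) on the transcript strand of GENCODE M21 (GRCm38) found the stem-loop in 44 of 67 rows, in 6 forms. One transcript of each form, and a second of the form carried by the abundant H4 genes, is given with 5 flanking bases on each side, the 16 bases of the match in capitals.
Hist1h1c: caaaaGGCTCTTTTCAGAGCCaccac
Hist1h3c: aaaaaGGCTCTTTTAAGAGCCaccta
Hist2h2ac: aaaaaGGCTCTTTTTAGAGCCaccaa
Hist1h4d: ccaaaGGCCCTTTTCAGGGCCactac
Hist1h4j: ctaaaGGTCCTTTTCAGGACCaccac
Hist1h4i: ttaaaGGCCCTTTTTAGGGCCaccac
Hist2h4: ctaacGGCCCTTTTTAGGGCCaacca
The form shown for Hist1h1c was in 26 rows of the H1, H2A, H2B and H3 classes, and that of Hist1h3c in 6 rows of H1, H2B and H3. That of Hist2h2ac was in this row alone. The stems of the 11 H4 rows differed from those of the 33 rows of other classes without exception. Among H4 genes, 7 rows had the form of Hist1h4d and 2 that of Hist1h4j. The form of Hist1h4i and Hist2h4 was in these 2 rows alone. Both belonged to the 3 H4 genes with a mean above 1 FPKM. A match was found in 4 of 6 H1, 11 of 18 H2A, 10 of 18 H2B, 8 of 12 H3 and 11 of 13 H4 rows. Several of the other rows have annotated transcripts that stop at the stop codon, as Hist1h2ak and Hist1h1b do, so the search could not reach that part of them. Others had no match although bases after the stop codon are annotated, as Hist1h2bc with 742, Hist2h2be with 2192 and Hist1h3g with 95.

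Rows of the clusters were listed above 0 about as often as all rows of the table. An FPKM above 0 in at least 1 genotype was listed for 50 of the 67 rows, and 17 rows (25.4%) were at 0 in both, near the 6120 of all 23309 rows (26.3%). All 6 H1 rows were detected. Rows at 0 in both genotypes numbered 7 of 18 for H2A, 4 of 18 for H2B, 2 of 12 for H3 and 4 of 13 for H4, and 13 of the 17 lay in Hist1. The 17 include the separate rows of Hist1h2ap, Hist1h4n and Hist2h2aa2. The joined rows that repeat Hist1h2ap and Hist2h2aa2 are among them too, which adds to the H2A count. A 0 is reported as a listing in the table and not as a measured absence, since a failed estimate and a true 0 cannot be told apart there.

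A mean over the genotypes of at least 1 FPKM was reached by 9 rows, 13.4% of the members against 46.2% of all genes. The most abundant was Hist1h2bc, an H2B gene, at 5.75 FPKM in wild-type cells and 5.46 in mutant cells. Next came the linker histone gene Hist1h1c at 3.71 FPKM in wild-type cells and 3.78 in mutant cells. The H4 gene Hist2h4 stood at 2.80 FPKM in wild-type cells and 2.47 in mutant cells, and was the sole row of Hist2 above 1. These 3 genes, of 3 classes, were close between genotypes, Hist1h2bc 1.05-fold lower and Hist2h4 1.13-fold lower in mutant cells.

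Among the others, Hist1h2ae (H2A) was at 2.42 FPKM in wild-type cells and 2.03 in mutant cells. Hist1h4i (H4) was listed at 2.30 FPKM in wild-type cells and 1.75 in mutant cells. Another H4 gene, Hist1h4d, had 1.84 FPKM in wild-type cells and 2.35 in mutant cells, the opposite direction. The H3 gene Hist1h3a was level, at 1.13 FPKM in wild-type cells and 1.135 in mutant cells. Hist1h2af and Hist1h2ak, both H2A, had a wide gap between genotypes and are described with the 2-fold differences. Some variant histone genes outside the clusters were listed at far higher values. H2afz, for the H2A.Z variant, was listed at 2055 FPKM in wild-type cells and 1891 in mutant cells. These are 54.6 and 56.8 times the sum of all 67 members. Whether the libraries captured mRNAs without a poly(A) tail is not stated. Such ratios therefore compare listed values and not the amounts of mRNA in the cells.

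**Figure D1:**
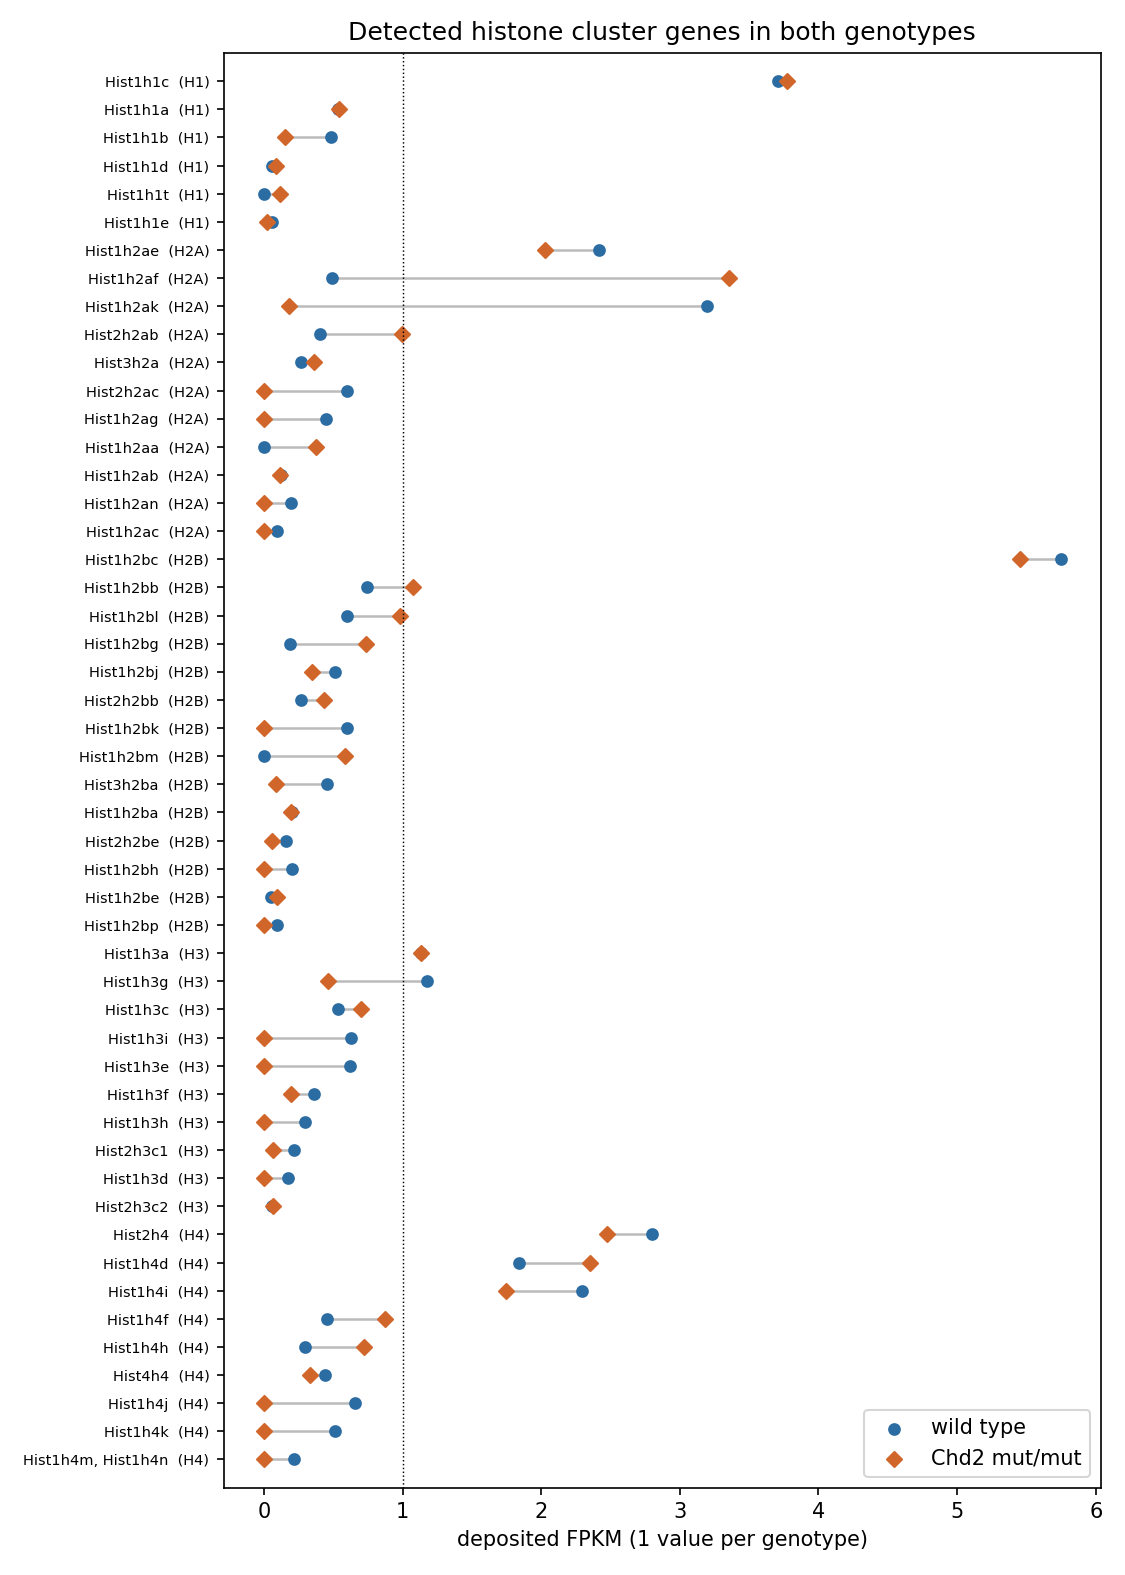
Deposited FPKM (x axis) of the 50 detected members, sorted by class and by mean, with wild type as circles and the Chd2 mut/mut value as diamonds joined by a grey line, and a dotted line at 1 FPKM. Means reach 1 FPKM in 9 of the detected members. The longest lines are those of Hist1h2af and Hist1h2ak and run in opposite directions.

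No member was called by the authors. The authors' deposited table gives 5 of the 67 members a q-value under 1 (Hist1h1c, Hist1h2ae, Hist1h2bc, Hist1h4i and Hist2h4), each with 0.998, and the others were listed at 1. Among all genes with a q-value under 1, 81 of 11276 (0.718%) were called. At that background, no call among 5 genes is not a result about the members. Chd2 itself, which checks the labels, had 10.2 FPKM in wild-type cells and 5.69 in mutant cells (55.9%), with a log2 fold change of -0.84, a q-value of 0.0103 and a call in the authors' deposited table. It stayed listed above 0, and no source used here says which part of the gene the mutations alter.

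Neither direction predominated among the members with a mean of at least 1 FPKM. Of these 9, 5 had a lower value in the mutant and 4 a higher one. The share of lower values was 55.6%, against 50.4% of all 10766 genes at that level. The median of the mutant-minus-wild-type difference in log2(FPKM + 1) was -0.06 over the 9 members and -0.0012 over all genes. With quantile normalization the split was 7 lower and 2 higher, since Hist1h1c and Hist1h3a, nearly equal between genotypes, changed sides. Fewer cells of a type, such as cells in S phase, and less RNA per cell cannot be told apart in bulk samples.

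A 2-fold difference was passed by 1 member upward and 1 downward. Hist1h2af was at 0.494 FPKM in wild-type cells and 3.36 in mutant cells, 6.79-fold higher. Hist1h2ak was at 3.20 FPKM in wild-type cells and 0.184 in mutant cells, 17.4-fold lower. Of all genes at that level, 0.557% were 2-fold or more higher in the mutant and 0.817% lower, those at 0 in 1 genotype included, and both members had a q-value of 1 in the authors' deposited table. The other 7 members at that level stayed within 2-fold.

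The H2A genes Hist1h2af and Hist1h2ak, on chromosome 13, have nearly the same coding sequence. Aligned over 393 bases, 379 were identical and 14 differed (96.4% identity). Their first 60 coding bases are given with the 4 differing positions in capitals.
Hist1h2af: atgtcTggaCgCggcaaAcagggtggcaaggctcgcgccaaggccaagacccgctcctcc
Hist1h2ak: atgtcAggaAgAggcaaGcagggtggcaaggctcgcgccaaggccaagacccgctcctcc
The sum of both genes was 3.69 FPKM in wild-type cells and 3.54 in mutant cells, a ratio of 0.959. The 2 genes were paired after their values were seen, as the largest change in each direction. That their opposite differences nearly cancelled follows in part from this choice and supports nothing about the pair. Both share sequence with further H2A copies as well. Of the 350 stretches of 50 bases in the annotated Hist1h2af transcript, 79.7% also occur in Hist1h2ad, 71.7% in Hist1h2ah and 64% in Hist1h2ai. Those 3 genes were listed at 0 in both genotypes. Of the stretches of Hist1h2ak, 43.3% occur in Hist1h2ao and in Hist1h2ap, also at 0. No source used here says how reads that fit several copies were assigned, so the values of single H2A copies are uncertain. Its part in these differences was not tested.

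The summed FPKM of all members was 37.6 in wild-type cells and 33.3 in mutant cells, a ratio of 0.885. Rows were then counted by whether they were listed at 0, a split that the difference between genotypes itself decides and that supports nothing about the rest. The 33 members above 0 in both genotypes summed to 32.3 FPKM in wild-type cells and 32.2 in mutant cells, a ratio of 0.998, with 16 lower and 17 higher in the mutant. The 17 members at 0 in 1 genotype summed to 5.34 FPKM in wild-type cells and 1.08 in mutant cells, the larger part of the arithmetic difference. They comprised 14 rows at 0 in the mutant and 3 at 0 in wild type.

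Among the 41 members detected with a mean under 1 FPKM, the 14 at 0 in the mutant alone made 34.1%, against 11.4% of all genes in that range. The 3 at 0 in wild type alone made 7.32%, against 10.1%. Short transcripts have more such listings: among detected genes under 1 FPKM whose annotated transcript is 200 to under 700 bases long, 28.5% of 165 (members included) were at 0 in the mutant alone and 16.4% in wild type alone. For the 24 members of that length the shares were 37.5% (9 rows) and 8.33% (2 rows). At matched length the members' share at 0 in the mutant lay closer to that of all genes, while their share at 0 in wild type lay farther below it. The part that length plays was not tested.

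The wild-type values behind these 14 listings were low, between 0.0920 and 0.658 FPKM. Those above 0.5 FPKM were the H4 genes Hist1h4j (0.658) and Hist1h4k (0.510), the H3 genes Hist1h3i (0.630) and Hist1h3e (0.621), the H2A gene Hist2h2ac (0.602) and the H2B gene Hist1h2bk (0.597). In the reverse direction, Hist1h2bm (H2B) was at 0 in wild-type cells and 0.587 FPKM in mutant cells. All 17 had a q-value of 1 in the authors' deposited table. A fold cannot be given for them.

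The lower end of the table shows how coarse such values are. The same ratio of mutant to wild type, 0.951, to within 2e-06 on the log2 scale, recurred in 47 genes with a mean of at most 0.204 FPKM, as it would for genes with equal whole numbers of fragments in both genotypes. Hist1h2ab, at 0.122 FPKM in wild-type cells and 0.116 in mutant cells, and Hist1h2ba, at 0.203 and 0.193 FPKM, were among them. The number of fragments behind a value is not given, so no counting interval can be attached.

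By class, H3 had the largest relative gap between genotypes of the 5 sums. The 12 H3 rows summed to 5.20 FPKM in wild-type cells and 2.63 in mutant cells, a ratio of 0.506. The 4 rows at 0 in the mutant, Hist1h3d, Hist1h3e, Hist1h3h and Hist1h3i, held 1.72 FPKM in wild type. Hist1h3g was at 1.18 FPKM in wild-type cells and 0.462 in mutant cells (2.54-fold lower). Hist1h3a and Hist1h3c did not follow: Hist1h3a was level and Hist1h3c had 0.532 FPKM in wild-type cells and 0.701 in mutant cells. In the authors' deposited table every H3 row had a q-value of 1. The genes for the H3.3 variant, which is made outside S phase as well, stood far higher, H3f3a at 448 FPKM in wild-type cells and 449.8 in mutant cells and H3f3b at 323 and 280.0. The listed value of H3f3b alone was 62.1 times the H3 cluster sum in wild type and 106 times in the mutant. As capture of mRNAs without a poly(A) tail is not described, these ratios do not give relative amounts of mRNA in the cells.

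**Figure D2:**
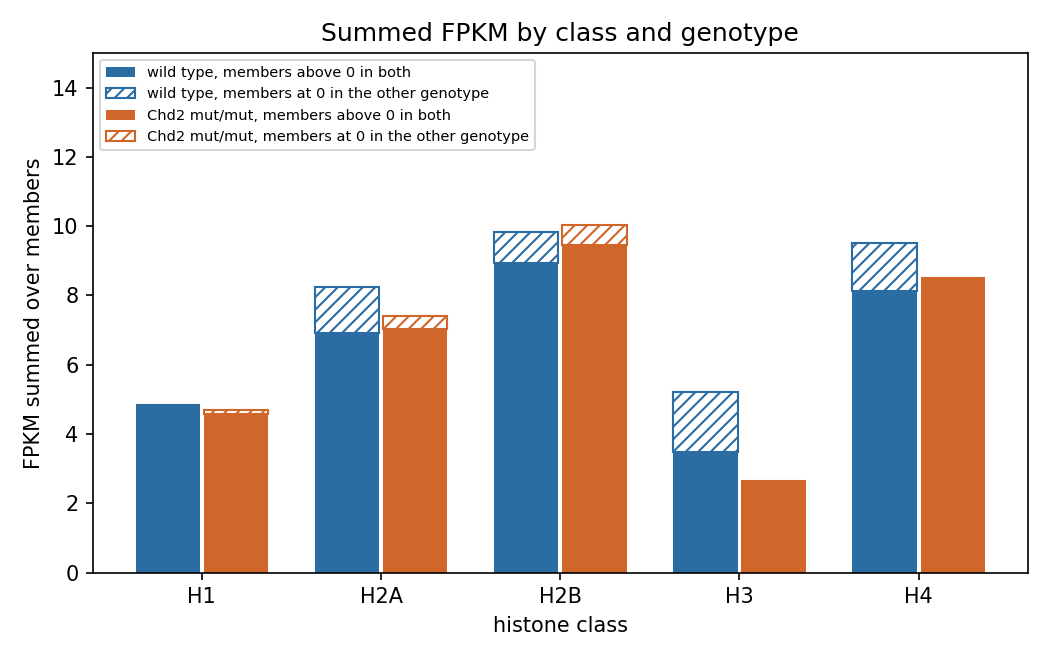
FPKM summed over the members of each histone class (y axis, from 0), with wild type in blue and Chd2 mut/mut in orange; the filled part holds members above 0 in both genotypes and the hatched part members at 0 in the other genotype. H3 goes from 5.20 to 2.63 FPKM, with 1.72 FPKM of the wild-type bar hatched.

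The other classes were closer to equality. The 6 H1 rows summed to 4.84 FPKM in wild-type cells and 4.69 in mutant cells, of which Hist1h1c made most. The 18 H2A rows summed to 8.24 and 7.41 FPKM, and their 6 rows above 0 in both genotypes to 6.90 and 7.04. The 18 H2B rows summed to 9.82 FPKM in wild-type cells and 10.04 in mutant cells. The 13 H4 rows summed to 9.51 and 8.50 FPKM, and their 6 rows above 0 in both genotypes to 8.12 and 8.50. Rows at 0 in the mutant alone, which can only lower its sum, numbered 4 of H2A, 3 of H2B and 3 of H4. Rows at 0 in wild type alone numbered 1 of H1, 1 of H2A and 1 of H2B.

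Within the H1 class, Hist1h1a had 0.533 FPKM in wild-type cells and 0.541 in mutant cells, and Hist1h1b 0.481 and 0.149. Hist1h1d and Hist1h1e were under 0.1 FPKM in both genotypes. The annotated spans of Hist1h1e and the H2B gene Hist1h2be overlap, introns included. No source says whether strand was used in counting. Reads from any stretch that both transcripts cover could therefore not be told apart.

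By cluster, Hist1 summed to 31.9 FPKM in wild-type cells and 28.4 in mutant cells, and Hist2 to 4.51 and 4.09 FPKM. The 3 rows of Hist3 summed to 0.722 FPKM in wild-type cells and 0.443 in mutant cells. Here Hist3h2ba (H2B) had 0.455 FPKM in wild-type cells and 0.0840 in mutant cells, whereas Hist3h2a (H2A) had 0.267 and 0.359. Hist4h4, the sole row of its cluster, had 0.438 FPKM in wild-type cells and 0.335 in mutant cells. In Hist2, the H2A gene Hist2h2ab had 0.402 FPKM in wild-type cells and 0.994 in mutant cells, the H2B gene Hist2h2bb 0.265 and 0.433, and the H3 gene Hist2h3c1 0.218 and 0.0674. Each of the 3 clusters with several rows held both lower and higher values in the mutant.

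**Figure D3:**
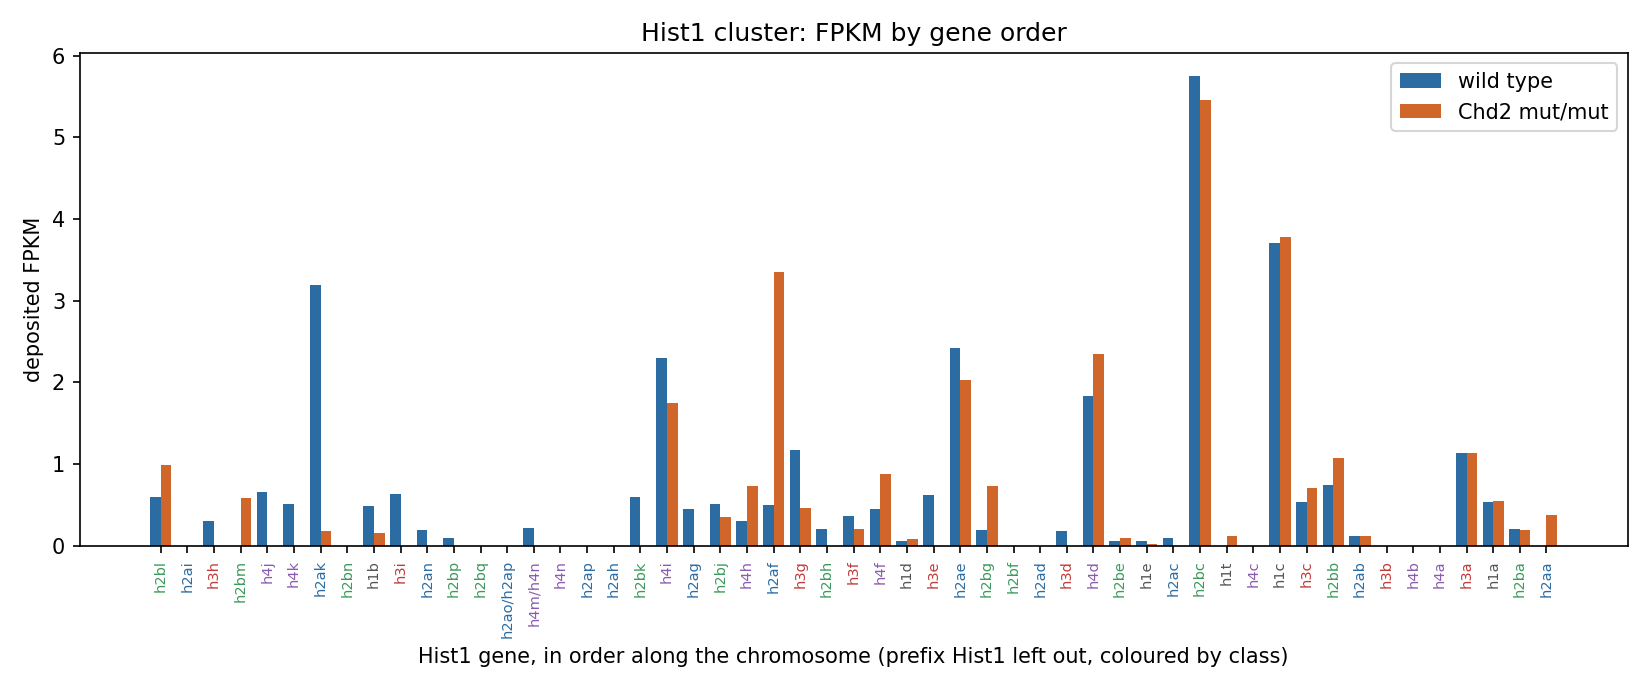
Deposited FPKM (bars from 0) of the 53 Hist1 rows in the order of their genes along the chromosome, with wild type in blue and Chd2 mut/mut in orange and the gene names coloured by class. Among members with a mean of at least 1 FPKM, h2bc, h1c, h4d, h2ae and h4i lie between neighbours under 1 FPKM in both genotypes. The bars of h2af and h2ak are tall in opposite genotypes.

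Many H2A and H2B genes are arranged as divergent couples that share a short intergenic region. In 12 couples the annotated start sites lay within 500 bases of each other. Both partners were detected in 6 couples, 1 partner was at 0 in both genotypes in 4, and both were at 0 in 2. By the mean over genotypes H2B was the higher partner in 5 couples and H2A in 5. The couple of Hist3h2a with the pseudogene Hist3h2bb-ps, which was at 0, is in the 4 and among those with H2A higher. Hist1h2bc, at 5.75 FPKM in wild type, faces Hist1h2ac, at 0.0920 there and at 0 in the mutant. The couple of Hist1h2ae and Hist1h2bg was uneven the other way, Hist1h2bg having 0.186 FPKM in wild-type cells and 0.736 in mutant cells. Hist1h2ak faces Hist1h2bn, which was at 0 in both genotypes. Partners of a couple were thus often listed at unequal levels.

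Promoters were read from RefSeq (GRCm38.p6), as 250 bases before to 50 after each start, to see what the members share beyond their names; 60 of the members' 67 symbols matched. The search on both strands was for TATAAA, for the motif CCAAT and for the octamer ATTTGCAT, known from H2B promoters; matches may overlap at their ends, and each was counted on its own. CCAAT was in 51 of 60 (85%), against 41.1% of all 27025 promoters of the table. All 48 matched H1, H2A, H2B and H3 promoters held it, and 3 of 12 H4 promoters did. TATAAA was in 58.3% against 15.7%. The octamer was in 14 members (23.3%, against 1.97% of all), 7 H2A and 7 H2B, and in no H1, H3 or H4 promoter.

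The promoters of an abundant H2A gene and an abundant H4 gene show this contrast, with the matches in capitals. Hist1h2ae (RefSeq symbol H2ac8) lies at chr13:23571171-23571470 and Hist1h4i (H4c9) at chr13:22041313-22041612, both on the minus strand, each printed along its gene's strand.
Hist1h2ae: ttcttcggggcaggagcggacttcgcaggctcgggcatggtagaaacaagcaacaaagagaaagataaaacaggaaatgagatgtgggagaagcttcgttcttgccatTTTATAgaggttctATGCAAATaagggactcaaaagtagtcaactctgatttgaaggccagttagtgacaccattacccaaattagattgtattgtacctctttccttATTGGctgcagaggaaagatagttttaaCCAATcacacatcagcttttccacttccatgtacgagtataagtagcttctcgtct
Hist1h4i: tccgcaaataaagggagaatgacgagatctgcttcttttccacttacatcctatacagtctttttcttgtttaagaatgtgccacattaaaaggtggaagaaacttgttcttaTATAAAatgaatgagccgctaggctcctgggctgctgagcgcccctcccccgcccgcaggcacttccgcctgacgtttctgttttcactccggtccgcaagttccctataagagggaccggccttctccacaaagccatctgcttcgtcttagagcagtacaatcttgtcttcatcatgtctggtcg
The Hist1h2ae window holds all 3 motifs, and that of Hist1h4i holds TATAAA alone. The Hist1h2ae window overlaps that of its divergent partner Hist1h2bg by 279 bases, and its TATAAA and octamer matches, which read on the opposite strand to Hist1h2ae, lie in both windows. In all 9 couples with both windows matched the windows overlap, by 220 to 279 bases, and a position counted for both partners was found for CCAAT in 9, for TATAAA in 6 and for the octamer in 3 couples. The counts of members with a motif therefore exceed the number of independent sites in such couples. For the matched symbols with a row of their own, levels were set beside the matches. Of the 9 members with a mean of 1 FPKM or more, 3 had no promoter entry matched (Hist1h2bc, Hist2h4 and Hist1h3a) and are missing from this comparison. The median of the mean FPKM was 0.198 for 33 members with TATAAA and 0.259 for 24 without, and 0.296 for 14 with the octamer and 0.148 for 43 without. For CCAAT it was 0.187 with and 0.358 without, the 8 without being all H4. Each range of levels was wide, and matched members above 1 FPKM were found with and without each motif.

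The length of the annotated 3′ end varied widely among the members. Of the 66 rows with an annotated stop codon, 27 had 150 or more annotated bases after it and 39 had fewer, a limit chosen after the values were seen. The first set held 6 of the 9 members that reached a mean of 1 FPKM, and 3 rows at 0 in both genotypes, the second 3 and 13. The 5 members that the authors' deposited table gives a q-value of 0.998 were all in the first set: Hist1h1c with 880 bases, Hist1h2ae with 199, Hist1h2bc with 742 over 2 exons, Hist1h4i with 376 and Hist2h4 with 1311. The long-ended rows made 61.1% of the summed FPKM in wild-type cells and 60.3% in mutant cells. Their median of the mean FPKM was nevertheless the lower one, 0.143 against 0.225. Longer transcripts yield more fragments at the same FPKM, and the part of the annotated length in these values was not tested.

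A like split was seen with the 44 stem-loop rows. In 22 of them the annotated transcript runs 100 or more bases past the stem-loop, where a cleaved histone mRNA would not reach, and in 22 it ends sooner. Rows at 0 in both genotypes numbered 1 of the first 22 and 9 of the second, and rows at or above a mean of 1 FPKM numbered 5 and 1. Hist1h2bc, the most abundant member, and Hist1h2af and Hist1h2ak had no stem-loop match and are missing from this split. In Hist1h2ae the annotation goes on for 151 bases after the stem-loop, and in Hist1h4d for 770. This limit too was chosen after the values were seen, and the files do not show which end the sequenced transcripts had.

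Sequence shared between copies also varied with level. It was taken over the longest annotated transcript, so a long 3′ end can lower it. Its median was 24.6% for the 27 long-ended rows and 65.8% for the 39 short-ended rows. The splits by 3′ end, by stem-loop and by shared sequence are therefore not independent of each other. The share of 50-base stretches found in another member had a median of 85.6% for the 17 rows at 0 in both genotypes, 45.3% for the 17 at 0 in 1 genotype and 34.7% for the 33 above 0 in both. Of the 29 rows that share at least 50%, a limit not planned beforehand, 14 were at 0 in both genotypes, against 3 of 38 rows that share less. The 29 include the joined rows and the separate rows that repeat their symbols. Of these, only the joined row of Hist1h4m with Hist1h4n was above 0, so the repeats add to the 14. The rows that share at least 50% summed to 9.67 FPKM in wild-type cells and 5.52 in mutant cells. Those that share less summed to 27.9 and 27.8 FPKM. By this split most of the lower sum in the mutant lay in the rows that share at least 50%. The split by listings at 0 held most of it as well, and the row sets overlap only in part. Of the 17 rows at 0 in 1 genotype, 8 share at least 50% and 9 share less. The part of read assignment was not tested.

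**Figure D4:**
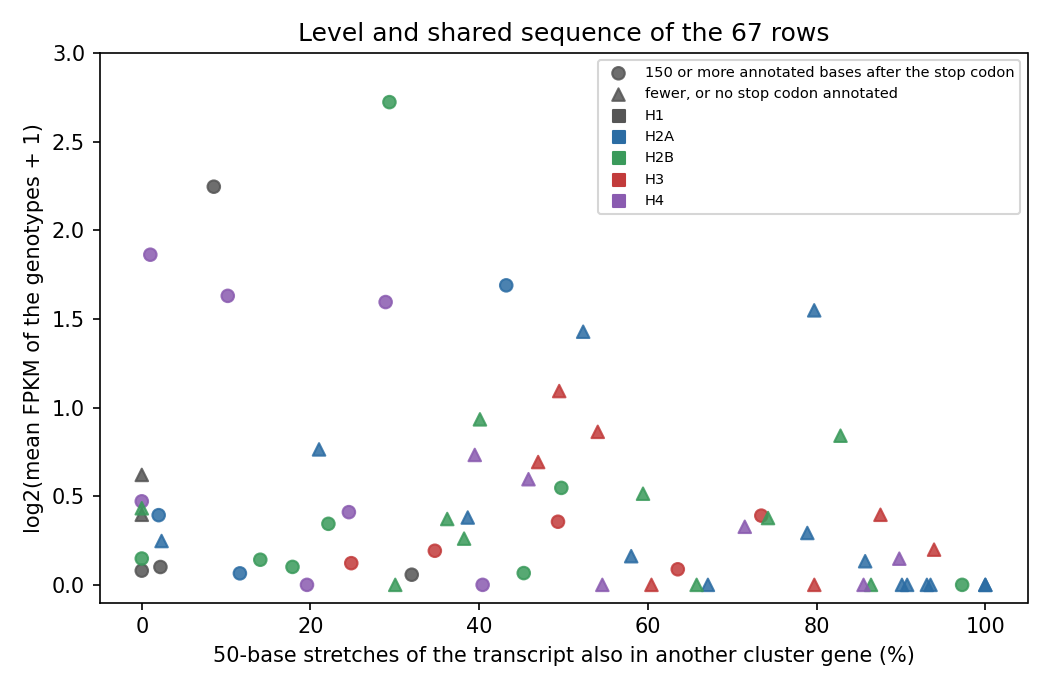
Share of 50-base stretches of each annotated transcript that also occur in another member (x axis, %) against log2 of the mean FPKM plus 1 (y axis) for the 67 rows, coloured by class, with circles for 150 or more annotated bases after the stop codon and triangles for the others. The rows at the right lie mostly at 0, and the highest points, Hist1h2bc and Hist1h1c, are circles that share 29.4% and 8.54%.

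The linker histone gene Hist1h1t and the core histone genes Hist1h2aa and Hist1h2ba are known for expression in testis or oocytes. All 3 were at or under 0.374 FPKM in both genotypes. Hist1h1t and Hist1h2aa were at 0 in wild type, with 0.114 and 0.374 FPKM in the mutant. The cells had the markers of embryonic stem cells, with Pou5f1 at 1032 FPKM in wild-type cells and 1071 in mutant cells, Nanog at 114 and 150.1, and Sox2 at 178 and 222. Of 8 lineage genes, Pax6 alone had a mean above 1 FPKM, with 1.68 in wild-type cells and 2.42 in mutant cells.

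The listed genes that make and cut histone mRNA all had a mean above 1 FPKM, and none was called in the authors' deposited table. Among all genes with a q-value under 1, 0.718% were called. At that background, no call in this list or in those below is not a result about them. Of 24 genes of histone 3′ end processing, 20 had a lower and 4 a higher value in the mutant, with a median difference of -0.05 on the log2(FPKM + 1) scale. Slbp, whose product binds the stem-loop, was at 99.9 FPKM in wild-type cells and 91.6 in mutant cells. The U7-specific Sm-like genes were at 28.8 and 24.2 FPKM for Lsm10 and at 2.43 and 2.38 FPKM for Lsm11. Zfp473, for the zinc finger protein that joins U7 to SLBP, had 9.60 FPKM in wild-type cells and 9.50 in mutant cells. Casp8ap2, for the histone locus body protein FLASH, had 5.77 and 5.27 FPKM. Among the cap-binding and cleavage genes, the widest gaps were in Srrt (146 and 131 FPKM), Ncbp1 (46.4 and 41.6 FPKM) and Cstf1 (44.7 and 40.3 FPKM).

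Of 21 genes of histone gene transcription and the histone locus body, 15 had lower and 6 higher values in the mutant, with a median of -0.06 and no call. Npat, the cyclin E target that activates histone genes in S phase, had 5.79 FPKM in wild-type cells and 5.70 in mutant cells. Hinfp, which acts on H4 promoters, had 7.49 and 6.89 FPKM. Ccne1, for cyclin E1, had 253 FPKM in wild-type cells and 198 in mutant cells, and Ccne2 had 2.12 and 1.67. E2f1 and E2f3, for E2F factors, went the other way, with 16.7 and 19.7 FPKM and with 8.22 and 9.48 FPKM. The E2F gene E2f2 did not, with 6.58 FPKM in wild-type cells and 6.07 in mutant cells.

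Of 36 genes of histone mRNA translation and decay with a mean of at least 1 FPKM, 23 had lower and 13 higher values in the mutant, with a median of -0.05 and no call. Eri1, the exonuclease that trims the stem-loop, had 13.0 FPKM in wild-type cells and 13.4 in mutant cells, and Xrn1, for a 5′ to 3′ exonuclease, 3.72 and 4.58. The exosome subunit genes Exosc4 (35.1 and 29.2 FPKM) and Exosc10 (56.9 and 49.9 FPKM) and the nuclease gene Pnpt1 (27.8 and 24.4 FPKM) were lower in the mutant.

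Of 26 genes of histone chaperones and import, 19 had lower and 7 higher values, with a median of -0.11 and no call. The widest gaps were in Ubn1 of the HIRA complex (4.28 FPKM in wild-type cells and 5.01 in mutant cells), the importin gene Ipo7 (127 and 113 FPKM), the FACT subunit gene Ssrp1 (213 and 189.5 FPKM) and the H3-H4 chaperone gene Nasp (280.1 and 249.6 FPKM). For comparison, the median over all genes kept by the same limit was -0.0012, and 50.4% of them were lower. At a mean of at least 5 FPKM the share of all genes that were lower was 53.9%. The lists from 3′ end processing to chaperones lay at higher levels, with medians of the mean from 20.6 to 44.3 FPKM.

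Of 16 rows of variant histone genes outside the clusters, 4 were at 0 in both genotypes (H2afb1, H1foo, Hils1 and H2bfm) and H1fnt was near 0. Among the 11 with a mean of 1 FPKM or more, 8 had lower and 3 higher values in the mutant, with a median of -0.05 and no call. The macroH2A genes went in opposite directions, H2afy at 39.8 FPKM in wild-type cells and 50.4 in mutant cells and H2afy2 at 2.74 and 1.80. H2afx, for H2A.X, had 312 FPKM in wild-type cells and 360.0 in mutant cells, 37.9 and 48.6 times the sum of the H2A cluster rows. The linker histone genes H1f0 (8.60 and 7.48 FPKM) and H1fx (55.2 and 49.3 FPKM) exceeded the 4.84 FPKM of the whole H1 class of the clusters. These comparisons with cluster sums are of listed values, since capture of mRNAs without a poly(A) tail is not described.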

How the data were processed

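RNA of wild-type and Chd2 mut/mut mouse embryonic stem cells was sequenced, 2 libraries per genotype. The build mm9 and the tools TopHat2 2.1.0, Cufflinks and bcl2fastq 2.17.1.14 are named in the submitters' processing notes. The annotation, the Cufflinks version, the handling of multiply mapped reads and the test behind the calls were not given in the sources used here. Deposited by the authors were 1 FPKM value per gene and genotype and, per the file headers, a log2 fold change, a q-value and a call. Called genes have a q-value under 0.05. The depth is unknown. Nothing says that the lots are separate cultures, so the q-values may measure technical spread.

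The members and gene lists were chosen with earlier results of these data known. The planned limma fit, for values per library, could not be run on 1 value per genotype. Changes are differences of log2(FPKM + 1), which understate those of low genes, and folds are plain ratios. A mean of at least 1 FPKM was required where stated. Named members were those with that mean, the 3 largest changes each way, the most abundant of each class in each cluster, and those at 0 in 1 genotype with at least 0.5 FPKM in the other. From each list, the 4 largest changes and the main trans-acting genes were named. Other genes named by value in the text (among them H2afz, H3f3a, H1f0 and H1fx of the variant histones, and Hist1h1a, Hist1h1b, Hist1h2ab, Hist1h2ac, Hist1h2ba, Hist1h3c and Hist1h3g) were chosen after their values were seen. Transcripts came from GENCODE M21 (GRCm38) and promoters from RefSeq, another build than mm9. Tables were made with Python 3.11.15, pandas 2.3.3, numpy 2.4.6 and Biopython 1.88. The calculations of changes, quantile normalization and reverse strands were checked on constructed values with known answers. The counts of members, motifs and shared stretches were not checked in this way. Filters, pseudocounts, scalings and members were varied.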

Additional observations from a re-analysis of the deposited data

How the results depend on the processing

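No paired analysis was possible because the table holds 1 value per genotype, and no library could be left out for the same reason. Of the 67 members, 9 had a mean of at least 1 FPKM, but 41 of at least 0.1, 17 of at least 0.5 and 1 of at least 5. A lower value in the mutant was listed for 5 of these 9, for 30 of 50 detected members without a filter, 25 of 41 at 0.1 and 1 of 1 at 5, but for 6 of 17 at 0.5, where 11 were higher; of all detected genes 49.9% were lower. The median change of -0.06 was -0.12 without a filter, -0.13 at 0.1 and -0.10 with quantile normalization, and was reversed to 0.020 at 0.5. Members 2-fold or more higher, 1 at the filter used, numbered 4 with no filter among those above 0 in both genotypes, 6 at 0.1, 3 at 0.5 and 0 at 5; those 2-fold or more lower, also 1, numbered 7, 16, 2 and 0. At 0.1 these counts include rows at 0 in 1 genotype, 10 of the 16 and 2 of the 6, for which no fold can be given. Leaving them out gives 6 lower and 4 higher. Among all genes, with rows at 0 in 1 genotype left out, 678 were 2-fold lower and 648 higher of 17189 detected. At 0.1 these were 344 and 288 of 14056, and at 0.5 they were 99 and 76 of 11795. The summed ratio of 0.885 was 0.998 without members at 0 in either genotype (a choice that the difference itself decides) and 0.952 over members with a mean of at least 1. Without the most abundant member of the class it was 0.804 for H1 (0.968 with it) and 1.12 for H2B (1.02 with it), and for H3 0.368 (0.506 with it). Quantile normalization reversed Hist1h1c to -0.011 and Hist1h3a to -0.016 on the log2 scale. Of 69 values of 23 named members under the alternatives, 2 were reversed, 19 moved, mostly with a pseudocount of 0.1, and 48 did not. Leaving out Hist1h2af and Hist1h2ak, chosen after the data were seen, gave a summed ratio of 0.877 and a median of -0.06. Fewer rows enter at a higher filter; the cause was otherwise not tested.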
